A study of Mus musculus with 15 samples.

Results

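The genes described here are those of glycolysis and of the pentose phosphate pathway, with the glucose and lactate transporters and the pyruvate dehydrogenase kinases beside them. They were taken from a list of 32 gene symbols by matching probes whose gene name, or whose RefSeq accession under a current or older symbol, was a member. Of the 32 genes, 31 had a probe by this rule, and all 31 were among the 20307 genes tested. Gapdh was the exception and is described on its own. Transcripts were measured on Agilent arrays of 1 colour in the uterus of CD-1 mice, which are outbred, after ovariectomy, in 5 groups of 3 arrays. The 5 groups received 100 µl of saline alone (vehicle) or 250 ng of E2 or of E3 in the same volume of saline, and the uteri of the oestrogen groups are compared here at 2 h and at 24 h after the injection. E2 and E3 are read here as estradiol and estriol, and estriol differs from estradiol by a further hydroxyl on the D ring. Ovariectomy, which removes the main source of the animals' own oestrogen, was common to all groups. The vehicle group is a single group, and the sources used here give neither its collection time nor the ages of the mice. They do not say either whether the arrays of a group came from separate animals, and the p-values therefore measure only how these samples differ, a spread that may be technical.

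Glycolysis splits glucose into pyruvate, which is either reduced to lactate or passed to the mitochondria. The pentose phosphate pathway branches off after hexokinase and yields NADPH for biosynthesis and ribose for nucleotides. Oestrogen makes the uterus of an ovariectomized rodent take up water within hours and grow and divide about a day later, and a greater use of glucose by the tissue is a classical part of that response.

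Levels below are log2 signals minus the 75th percentile of all non-control probes on the same array, and changes are differences between group means on that log2 scale, given ± SE (n = 3 arrays a group). A gene was called when limma's adjusted p, by Benjamini-Hochberg over all 20307 genes in a fit of all 15 arrays, was under 0.05, and "rose" and "fell" are used only of called genes. Probes differ in brightness, so levels are compared between groups for a gene and never between genes. All 4 comparisons with vehicle share the same 3 vehicle arrays.

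**Figure D1:**
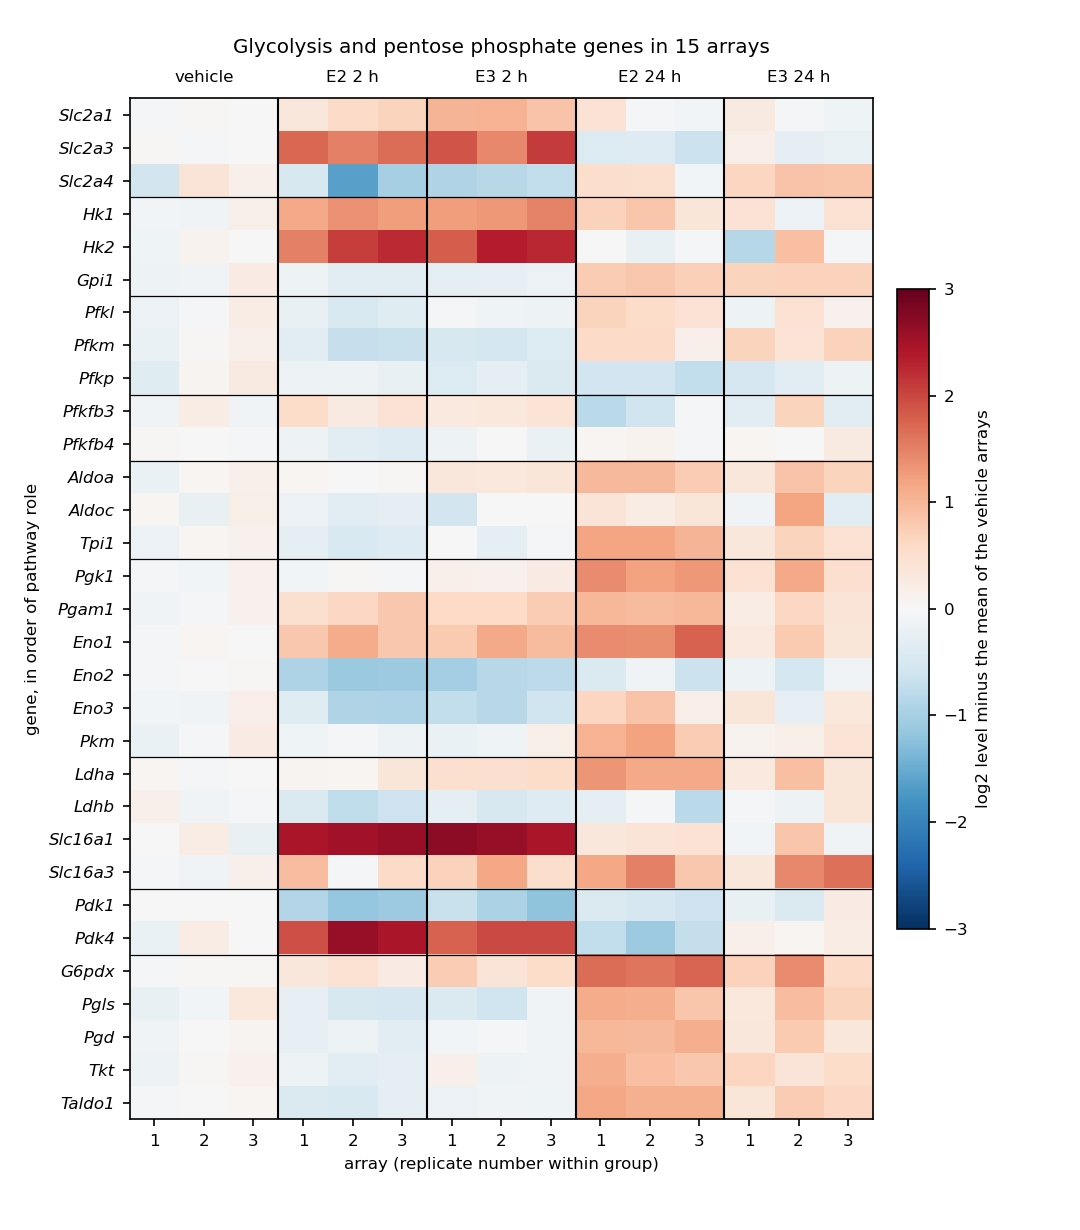
Level of each of the 31 genes on each of the 15 arrays, as the log2 level minus the mean of the 3 vehicle arrays (colour), with genes in order of pathway role and arrays grouped by treatment. Slc2a3, Hk1, Hk2, Slc16a1 and Pdk4 are red on all 6 arrays at 2 h, and the genes from Tpi1 to Ldha and the pentose phosphate genes are mostly red at 24 h, more so with E2 than with E3.

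By their calls against vehicle and between the times, 6 genes were early with E2 (higher at 2 h, then lower at 24 h than at 2 h), 12 were late (higher at 24 h than with vehicle and at 2 h), 4 were lower at 2 h and late, 3 were lower at 2 h and rose again, and 6 had another course. With E3, 7 were early, 7 late, 1 lower at 2 h and late and 4 lower at 2 h and rose again, and 12 had another course. The shares of all genes tested with these courses were not counted, so the counts stand without that background. Between the times, 52.3% of all genes were called with E2 and 49.7% with E3. Soon after either oestrogen, the genes with the largest increases were those that bring glucose in, trap it and move lactate or hold pyruvate back (Slc2a3, Hk2, Hk1, Slc16a1, Pdk4). A day after E2, most of the genes for the enzymes from aldolase to lactate dehydrogenase and all of those for the 5 pentose phosphate enzymes were higher. Of the 5 early genes just named, Hk2 and Slc16a1 were then not called against vehicle, Hk1 was still higher, and Slc2a3 and Pdk4 were lower. The promoters of 3 genes that were early with both oestrogens (Hk2, Slc16a1 and Pdk4) and of 4 genes whose highest levels came at 24 h after E2 (Tpi1, Pgk1, Eno1 and Ldha) are shown because these genes give the contrast in time with E2. Of the 4, Eno1 had risen at 2 h after both oestrogens and Ldha at 2 h after E3, and Eno1 was early by its course with E3. Each is the 250 bases before the annotated start, 5′ to 3′ on the gene's strand, from RefSeq on GRCm38.p6. Capitals mark each match to RCGTG, that is ACGTG or GCGTG, on either strand. This is the core of the element bound by hypoxia-inducible factors, and it also lies within the E-box CACGTG that Myc and ChREBP family proteins bind.
Hk2 (chr6:82774455-82774704, minus strand): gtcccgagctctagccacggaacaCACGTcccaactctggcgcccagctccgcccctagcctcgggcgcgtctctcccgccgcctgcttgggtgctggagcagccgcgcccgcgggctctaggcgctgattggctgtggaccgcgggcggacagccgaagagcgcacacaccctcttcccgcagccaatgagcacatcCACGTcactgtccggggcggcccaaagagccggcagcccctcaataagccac
Slc16a1 (chr3:104638414-104638663, plus strand): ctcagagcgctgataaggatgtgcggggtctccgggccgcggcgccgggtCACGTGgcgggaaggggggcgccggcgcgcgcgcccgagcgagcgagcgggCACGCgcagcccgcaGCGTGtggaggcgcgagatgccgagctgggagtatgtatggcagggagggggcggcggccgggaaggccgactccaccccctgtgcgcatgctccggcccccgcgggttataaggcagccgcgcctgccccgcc
Pdk4 (chr6:5496279-5496528, minus strand): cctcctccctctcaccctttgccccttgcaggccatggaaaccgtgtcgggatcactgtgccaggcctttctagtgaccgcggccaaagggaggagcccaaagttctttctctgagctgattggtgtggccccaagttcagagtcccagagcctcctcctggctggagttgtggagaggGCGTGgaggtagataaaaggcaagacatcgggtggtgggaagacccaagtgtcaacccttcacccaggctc
Tpi1 (chr6:124814159-124814408, minus strand): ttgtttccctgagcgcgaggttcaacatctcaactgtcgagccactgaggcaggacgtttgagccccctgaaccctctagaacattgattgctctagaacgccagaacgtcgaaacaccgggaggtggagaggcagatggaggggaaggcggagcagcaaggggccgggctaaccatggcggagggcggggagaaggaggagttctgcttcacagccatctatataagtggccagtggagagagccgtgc
Pgk1 (chrX:106186850-106187099, plus strand): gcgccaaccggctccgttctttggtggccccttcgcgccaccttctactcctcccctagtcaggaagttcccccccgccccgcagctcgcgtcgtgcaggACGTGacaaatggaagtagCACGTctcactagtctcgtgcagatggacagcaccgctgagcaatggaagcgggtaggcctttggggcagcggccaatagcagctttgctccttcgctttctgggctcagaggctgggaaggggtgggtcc
Eno1 (chr4:150236947-150237196, plus strand): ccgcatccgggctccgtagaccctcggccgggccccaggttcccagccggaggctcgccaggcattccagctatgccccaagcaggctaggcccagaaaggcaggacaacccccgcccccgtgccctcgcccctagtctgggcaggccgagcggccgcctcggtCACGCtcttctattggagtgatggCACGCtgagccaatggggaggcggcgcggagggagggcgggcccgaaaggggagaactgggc
Ldha (chr7:46845554-46845803, plus strand): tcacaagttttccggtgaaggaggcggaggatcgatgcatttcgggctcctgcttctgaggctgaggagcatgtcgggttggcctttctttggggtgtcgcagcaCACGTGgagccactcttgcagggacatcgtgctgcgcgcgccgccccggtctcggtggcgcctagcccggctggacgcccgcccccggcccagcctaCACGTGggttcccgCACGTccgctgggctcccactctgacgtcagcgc

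RefSeq lists 3 promoters for Eno1 and 2 for Ldha, and the one shown was chosen after its matches were seen. The Slc16a1 promoter held 4 matches, which include 1 CACGTG. The Ldha promoter shown held 5 matches and 2 CACGTG, and the other held 1 match. The Eno1 promoter shown held 2 matches, and the others held 1 and 2. Hk2 and Pgk1 held 2 each, Pdk4 held 1 and Tpi1 held 0. RefSeq gave 43 promoters for 29 of the genes, and 34 of them (79.1%) held RCGTG, against 38.6% of all 32851 RefSeq promoters of that length. CACGTG was in 4 of the 43 (9.3%), against 6.02% of all promoters. Other motifs were counted too. The GC box GGGCGG was in 24 of the 43 (55.8%), against 32.7% of all promoters, and GGTCA in 20 (46.5%), against 35.2%. The oestrogen response element was in 0 of the 43, against 0.0639% of all promoters. Some of the 43 are overlapping promoters of the same gene. Counted by gene, 26 of the 29 held RCGTG in any of their promoters. The bases of the 43 promoters were 36.4 to 76.4% G or C, with a median of 60.4%, and the shares were not matched for base composition. A match is only a description of the letters, and genes of both courses held matches.

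At 2 h after E2, 8 of the 31 genes rose and 8 fell, against 15.5% higher and 23.1% lower among all genes tested (38.7% called in all). At 2 h after E3, 10 rose and 5 fell, against 16.6% higher and 23.6% lower (40.2% in all). At 24 h after E2, 18 rose and 4 fell, against 21.1% higher and 22.3% lower (43.4% in all). At 24 h after E3, 14 rose and 0 fell, against 9.7% higher and 10.7% lower (20.4% in all). The share that fell at 2 h was near that of all genes with E2 and below it with E3. The share that rose was above that of all genes with both oestrogens, at 2 h as well as at 24 h. The median change of the 31 genes was -0.18 with E2 and -0.05 with E3 at 2 h, where the medians over all genes were -0.14 and -0.16. At 24 h the genes' medians were 0.57 with E2 and 0.25 with E3, where all genes had -0.02 and -0.0041. Beside the 0 genes that fell by limma at 24 h after E3, 15 of the 31 had an unadjusted p under 0.05 in either direction, and no other tool was run.

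These splits move with the scaling of the arrays. With each array scaled to its median, the medians over all genes became 0.04 and 0.08 at 2 h and 0.20 and 0.14 at 24 h, and those of the 31 genes -2e-04 and 0.19 at 2 h and 0.79 and 0.39 at 24 h, in the order E2 and E3. The counts of genes that rose and fell were then 8 and 3 for E2 and 12 and 2 for E3 at 2 h, and 18 and 2 for E2 and 15 and 0 for E3 at 24 h. With quantile normalization they were 8 and 12 for E2 and 9 and 10 for E3 at 2 h. At 24 h, with that normalization, they were 14 and 6 for E2 and 5 and 0 for E3. Shares of all genes called under these scalings are not given here, so these counts cannot be set against them.

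**Figure D2:**
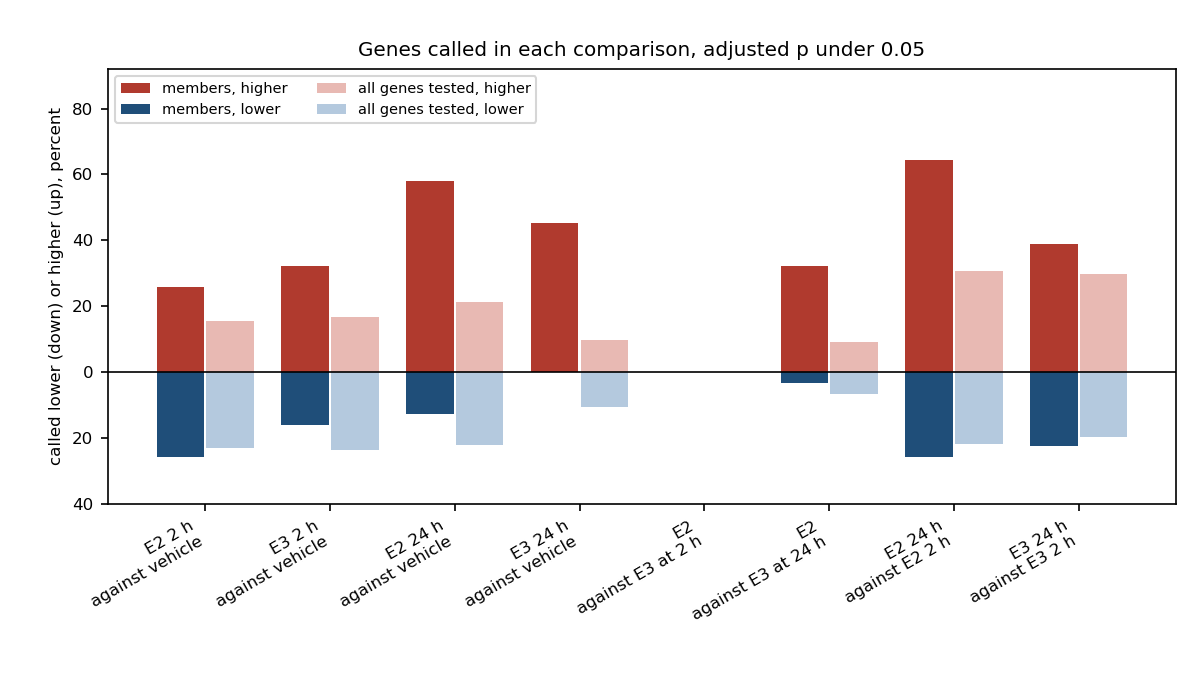
Share of the 31 genes (dark bars) and of all 20307 genes tested (pale bars) called higher (upward) or lower (downward) at adjusted p under 0.05 in each comparison, in percent. The genes' upward bars stand above those of all genes in every comparison with vehicle, and both bars are at 0 for E2 against E3 at 2 h.

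Glucose transporters moved early. Slc2a3, the high-affinity glucose transporter of neurons and embryos, lay at 0.17, 0.10 and 0.14 in the vehicle arrays, at 1.86, 1.65 and 1.80 at 2 h after E2 and at 2.01, 1.57 and 2.24 at 2 h after E3. Its levels at 24 h were -0.28, -0.25 and -0.51 with E2 and 0.34, -0.17 and -0.07 with E3. All 6 arrays at 2 h stood above all vehicle arrays, and the 3 E2 arrays at 24 h stood below them. Slc2a3 rose by 1.64 ± 0.17 after E2 (adjusted p = 1.8e-05) and 1.80 ± 0.17 after E3 (adjusted p = 8e-06). At 24 h after E2 it fell by 0.48 ± 0.17 (limma adjusted p = 0.038). That call was lost on leaving out any 1 of the 6 arrays compared, with changes of -0.40 to -0.53 and adjusted p of 0.055 (without E2 24 h array 2) to 0.119 (without E2 24 h array 3), and with median scaling (-0.27, adjusted p = 0.239).

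Slc2a1, the widespread basal glucose transporter, rose at 2 h by 0.52 ± 0.16 after E2 (adjusted p = 0.0187) and 0.97 ± 0.16 after E3 (adjusted p = 0.00038), and its changes at 24 h were 0.11 and 0.03. Its E2 call at 2 h was lost without vehicle array 1 (0.50), E2 array 2 (0.50) or E2 array 3 (0.45), with adjusted p of 0.0564 to 0.0764. Slc2a4, the insulin-responsive transporter of muscle and fat, went the other way. Its levels were 1.25, 2.18 and 1.95 with vehicle, 1.31, 0.16 and 0.80 at 2 h after E2 and 0.89, 0.96 and 1.05 at 2 h after E3. A day after E2 it lay at 2.31, 2.28 and 1.72, and a day after E3 at 2.44, 2.64 and 2.62. The lowest vehicle array overlapped the highest E2 array at 2 h, and the E3 arrays at 2 h lay below all vehicle arrays. Slc2a4 fell at 2 h by 1.03 ± 0.28 after E2 (adjusted p = 0.0123) and 0.82 ± 0.28 after E3 (adjusted p = 0.0357), and then rose from 2 h to 24 h by 1.35 after E2 (adjusted p = 0.00169) and 1.60 after E3 (adjusted p = 0.00067). The E2 call was lost without vehicle array 2 (-0.84, adjusted p = 0.057) or E2 array 2 (-0.73, adjusted p = 0.0582). The E3 call was lost without vehicle array 2 (-0.63) or 3 (-0.75), without any 1 of the E3 arrays (-0.78, -0.82 and -0.86) and with median scaling (-0.59, adjusted p = 0.126).

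The hexokinases phosphorylate glucose and so keep it in the cell. Hk2, the inducible isoform, lay at 0.31, 0.56 and 0.46 with vehicle, at 1.94, 2.52 and 2.67 at 2 h after E2 and at 2.26, 2.80 and 2.70 at 2 h after E3. Its 24 h levels were 0.46, 0.21 and 0.37 for E2 and -0.41, 1.34 and 0.42 for E3. All 6 arrays at 2 h stood above every vehicle array, while the E3 arrays at 24 h lay on both sides of the vehicle arrays. Hk2 rose by 1.93 ± 0.34 after E2 (adjusted p = 0.00079) and 2.15 ± 0.34 after E3 (adjusted p = 0.00037), and its changes at 24 h were -0.09 and 0.01.

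Hk1, the housekeeping isoform that binds mitochondria, had vehicle levels of 3.40, 3.38 and 3.66. They were 4.61, 4.84 and 4.72 at 2 h after E2 and 4.74, 4.78 and 4.97 at 2 h after E3, then 4.17, 4.30 and 3.83 at 24 h after E2 and 3.92, 3.30 and 3.94 at 24 h after E3. Only the E3 arrays at 24 h overlapped the vehicle arrays. Hk1 rose by 1.24 ± 0.18 after E2 (adjusted p = 0.00018) and 1.35 ± 0.18 after E3 (adjusted p = 9.4e-05) at 2 h, and by 0.63 ± 0.18 at 24 h after E2 (adjusted p = 0.0141). The 24 h call was lost without vehicle array 2 (0.58, adjusted p = 0.0511) or E2 24 h array 2 (0.53, adjusted p = 0.0592). Gpi1, the isomerase of the next step, did not share the early increase (-0.27 and -0.23, neither called). It rose at 24 h by 0.76 ± 0.11 after E2 (adjusted p = 0.00026) and 0.69 ± 0.11 after E3 (adjusted p = 0.00431).

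The phosphofructokinase genes encode the subunits of the committed step of glycolysis, and with the probes used none changed 2-fold against vehicle. Pfkm, the muscle subunit, fell at 2 h by 0.56 with E2 and by 0.47 with E3 and rose at 24 h by 0.44 and 0.59, all ± 0.15 and with adjusted p between 0.0127 and 0.0365. Leaving out 1 array ended these calls in 3, 5, 4 and 3 of 6 cases in that order, and both calls at 2 h ended with median scaling (-0.38 and -0.23). Pfkl, the liver subunit, rose by 0.55 ± 0.15 at 24 h after E2 (adjusted p = 0.0123; lost without vehicle array 1), and Pfkp, the platelet subunit, fell there by 0.63 ± 0.15 (adjusted p = 0.00498). The other probes of Pfkp, well above background on all arrays, changed by -0.75 and -1.58 at 24 h after E2. At 24 h after E3 they changed by -0.33 and -0.90, in the same order. Pfkfb3 and Pfkfb4 encode the bifunctional enzymes that set the level of an allosteric activator of phosphofructokinase. Neither was called against vehicle in any group, and the same held for the aldolase gene Aldoc, and these were the only 3 of the 31 genes for which that was so. Pfkfb3 fell from 2 h to 24 h of E2 by 0.90 ± 0.26 (adjusted p = 0.0111).

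The enzymes that handle the trioses rose late. Aldoa, the main aldolase, which splits fructose bisphosphate, rose at 24 h by 0.90 ± 0.13 after E2 (adjusted p = 0.00028) and 0.61 ± 0.13 after E3 (adjusted p = 0.0113; 0.52 and 0.0515 without vehicle array 1). Tpi1, which interconverts the trioses, lay at 3.78, 4.01 and 4.08 with vehicle, at 3.67, 3.49 and 3.58 at 2 h after E2 and at 3.94, 3.66 and 3.89 at 2 h after E3. By 24 h the arrays read 5.14, 5.15 and 4.99 for E2 and 4.30, 4.63 and 4.41 for E3. At 24 h the E2 arrays stood above the E3 arrays, which stood above the vehicle arrays. Tpi1 fell by 0.38 ± 0.12 at 2 h after E2 (adjusted p = 0.0296), a call that ended with median scaling (-0.20, adjusted p = 0.338) and without vehicle array 2 (-0.35) or 3 (-0.31) or E2 array 2 (-0.33) or 3 (-0.38). At 24 h it rose by 1.13 ± 0.12 with E2, which is 2.19-fold (adjusted p = 4.3e-05), and after E3 by 0.49 ± 0.12 (adjusted p = 0.0195). The E3 call was lost without vehicle array 1 (0.40) or 2 (0.51) or E3 array 2 (0.40), with adjusted p of 0.0536 to 0.0837.

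Pgk1, the kinase that makes the first ATP of glycolysis, lay at 3.41, 3.37 and 3.58 with vehicle, at 3.37, 3.49 and 3.43 at 2 h after E2 and at 3.61, 3.59 and 3.69 at 2 h after E3. At 24 h it lay at 4.87, 4.67 and 4.75 with E2 and at 3.92, 4.58 and 3.97 with E3. The arrays of E2 at 2 h overlapped vehicle, and at 24 h both oestrogens stood above it, E2 above E3. Pgk1 rose at 24 h by 1.31 ± 0.15 with E2, which is 2.48-fold (adjusted p = 6.6e-05), and after E3 by 0.70 ± 0.15 (adjusted p = 0.0115).

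Pgam1, the mutase of lower glycolysis, rose in all 4 comparisons with vehicle. Its levels were 3.51, 3.58 and 3.75 with vehicle, 4.09, 4.23 and 4.42 at 2 h after E2 and 4.22, 4.22 and 4.38 at 2 h after E3. A day after E2 it lay at 4.62, 4.57 and 4.61, and a day after E3 at 3.83, 4.23 and 3.99. No treated array overlapped a vehicle array. Pgam1 rose by 0.63 with E2 and 0.66 with E3 at 2 h and by 0.99 with E2 and 0.40 with E3 at 24 h, each ± 0.12 (adjusted p of 0.00156, 0.00118, 0.0001 and 0.0403). The E3 call at 24 h was lost without vehicle array 1 (0.35) or 2 (0.39) or E3 array 2 (0.30) or 3 (0.41), with adjusted p of 0.074 to 0.135.

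Eno1, the widespread enolase, was the other gene that rose in all 4. It lay at -0.86, -0.76 and -0.80 with vehicle, at 0.01, 0.30 and 0.00 at 2 h after E2 and at -0.02, 0.33 and 0.15 at 2 h after E3. Its 24 h levels were 0.61, 0.58 and 0.95 for E2 and -0.51, -0.02 and -0.45 for E3. The 24 h arrays of E2 were above all others, and those of E3 lay between vehicle and the 2 h arrays, with array 2 reaching the lowest of them. Eno1 rose by 0.91 ± 0.16 after E2 (adjusted p = 0.00064) and 0.96 ± 0.16 after E3 (adjusted p = 0.00043) at 2 h. At 24 h it rose by 1.52 ± 0.16 with E2, which is 2.87-fold (adjusted p = 3.2e-05), and after E3 by 0.48 ± 0.16 (adjusted p = 0.0495). The last call was lost without any 1 of the vehicle arrays (0.45, 0.50 and 0.48) or without E3 array 2 (0.32) or 3 (0.54), with adjusted p of 0.0616 to 0.166.

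The other enolases fell early. Eno2, the neuronal enolase, lay at 0.39, 0.39 and 0.46 with vehicle, at -0.51, -0.69 and -0.68 at 2 h after E2 and at -0.60, -0.42 and -0.36 at 2 h after E3. By 24 h the arrays read -0.01, 0.31 and -0.23 for E2 and 0.27, -0.11 and 0.30 for E3. All treated arrays were below the vehicle arrays. Eno2 fell at 2 h by 1.04 ± 0.15 after E2 (adjusted p = 0.00017) and 0.88 ± 0.15 after E3 (adjusted p = 0.00056), and its changes of -0.39 (adjusted p = 0.0504) and -0.26 (adjusted p = 0.226) at 24 h were not called. Eno3, the muscle enolase, fell at 2 h by 0.73 with E2 and 0.72 with E3, both ± 0.21 (adjusted p = 0.0169 and 0.0183), and rose by 0.57 at 24 h after E2 (adjusted p = 0.047). Leaving out 1 array ended these calls in 3, 2 and 4 of 6 cases in that order. Both 2 h calls of Eno3 ended with median scaling (-0.55 and -0.48, adjusted p = 0.0568 and 0.0915).

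Pkm, the pyruvate kinase of most tissues, ends the pathway. Its levels were 2.69, 2.81 and 3.13 with vehicle, 2.75, 2.82 and 2.72 at 2 h after E2 and 2.67, 2.75 and 3.06 at 2 h after E3, and these 3 groups overlapped. At 24 h they were 3.92, 4.08 and 3.63 with E2, above all vehicle arrays, and 2.98, 3.06 and 3.28 with E3, which overlapped them. Pkm rose by 1.00 ± 0.16 at 24 h after E2 (adjusted p = 0.00039), whereas the change of 0.23 ± 0.16 with E3 was not called (adjusted p = 0.307).

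Lactate handling had an early and a late member. Slc16a1, the lactate and pyruvate carrier of most cells, had the largest increase of the 31 genes at 2 h with each oestrogen. It lay at 1.04, 1.24 and 0.80 with vehicle, at 3.48, 3.53 and 3.64 at 2 h after E2 and at 3.71, 3.65 and 3.48 at 2 h after E3. At 24 h it lay at 1.36, 1.41 and 1.45 with E2 and at 0.94, 1.85 and 0.92 with E3. The 2 h arrays stood more than 2 log2 units above the highest vehicle array, and at 24 h the E3 arrays overlapped vehicle. Slc16a1 rose by 2.53 ± 0.21 after E2 (adjusted p = 3.1e-06) and 2.59 ± 0.21 after E3, which is 6.02-fold (adjusted p = 2.5e-06), and was not called at 24 h (0.38 and 0.21).

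Ldha, the lactate dehydrogenase subunit that favours lactate production, lay at 4.86, 4.78 and 4.79 with vehicle, at 4.89, 4.87 and 5.17 at 2 h after E2 and at 5.28, 5.30 and 5.36 at 2 h after E3. A day after E2 it lay at 6.13, 5.95 and 5.94, and a day after E3 at 5.11, 5.71 and 5.18. All treated arrays stood above the vehicle arrays, those of E2 at 2 h by the least. Ldha rose at 24 h by 1.20 ± 0.15 with E2, which is 2.29-fold (adjusted p = 9.6e-05), and after E3 by 0.52 ± 0.15 (adjusted p = 0.0306). It rose by 0.50 ± 0.15 at 2 h after E3 (adjusted p = 0.0175) and was not called at 2 h after E2 (0.16, adjusted p = 0.422). The E3 call at 24 h was lost without any 1 of the vehicle arrays (0.55, 0.51 and 0.51) or without E3 array 2 (0.33), with adjusted p of 0.0616 to 0.0907, and that at 2 h without vehicle array 2 (0.49) or E3 array 3 (0.48). Ldhb, the subunit of oxidative tissues, fell by 0.61 ± 0.19 at 2 h after E2 (adjusted p = 0.0225), a call that ended with median scaling (-0.43, adjusted p = 0.102) and without vehicle array 1 (-0.53) or E2 array 2 (-0.53) or 3 (-0.60).

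Slc16a3, the lactate exporter of glycolytic cells, varied widely between arrays. Its levels were -1.52, -1.58 and -1.33 with vehicle, -0.55, -1.55 and -0.90 at 2 h after E2 and -0.79, -0.33 and -0.96 at 2 h after E3. Its 24 h levels were -0.31, 0.04 and -0.67 for E2 and -1.14, -0.03 and 0.17 for E3. Only the E2 arrays at 2 h overlapped vehicle. Slc16a3 rose at 24 h by 1.17 ± 0.34 with E2 (adjusted p = 0.015), lost without E2 array 2 (0.99, adjusted p = 0.0611). It rose by 1.15 ± 0.34 with E3 (adjusted p = 0.0344), lost without any 1 of the vehicle arrays (1.13, 1.10 and 1.22) or without E3 array 2 (1.00) or 3 (0.89), with adjusted p of 0.0521 to 0.108.

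The pyruvate dehydrogenase kinases, which switch off the entry of pyruvate into the mitochondria, moved in opposite directions at 2 h. Pdk4, the isoform induced by fasting, lay at -0.27, 0.14 and -0.09 with vehicle, at 1.86, 2.53 and 2.37 at 2 h after E2 and at 1.69, 1.91 and 1.90 at 2 h after E3. By 24 h the arrays read -0.82, -1.16 and -0.78 for E2 and 0.08, -0.01 and 0.15 for E3. The 2 h arrays were above vehicle, the 24 h arrays of E2 were below it, and those of E3 at 24 h overlapped it. Pdk4 rose at 2 h by 2.33 ± 0.17 with E2, which is 5.02-fold (adjusted p = 1.4e-06), and after E3 by 1.91 ± 0.17, which is 3.75-fold (adjusted p = 5.9e-06). At 24 h after E2 it fell by 0.85 ± 0.17 (adjusted p = 0.0021), and the change with E3 was 0.15.

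Pdk1, the isoform induced by hypoxia, lay at 0.29, 0.32 and 0.33 with vehicle, at -0.56, -0.84 and -0.79 at 2 h after E2 and at -0.37, -0.64 and -0.88 at 2 h after E3. At 24 h it lay at -0.12, -0.20 and -0.30 with E2 and at 0.09, -0.13 and 0.55 with E3. The 2 h arrays and the 24 h arrays of E2 were below vehicle. Pdk1 fell at 2 h by 1.04 ± 0.17 after E2 (adjusted p = 0.00045) and 0.94 ± 0.17 after E3 (adjusted p = 0.0009). It fell by 0.52 ± 0.17 at 24 h after E2 (adjusted p = 0.0271), a call lost with median scaling (-0.30, adjusted p = 0.146) and without any 1 of the vehicle arrays (-0.53, -0.52 and -0.51) or E2 24 h array 2 (-0.52) or 3 (-0.47). The other probe of Pdk1, well above background on all arrays, changed by -0.95 and -0.92 at 2 h of E2 and E3, and by 0.08 at 24 h of E2, where the probes disagree.

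**Figure D3:**
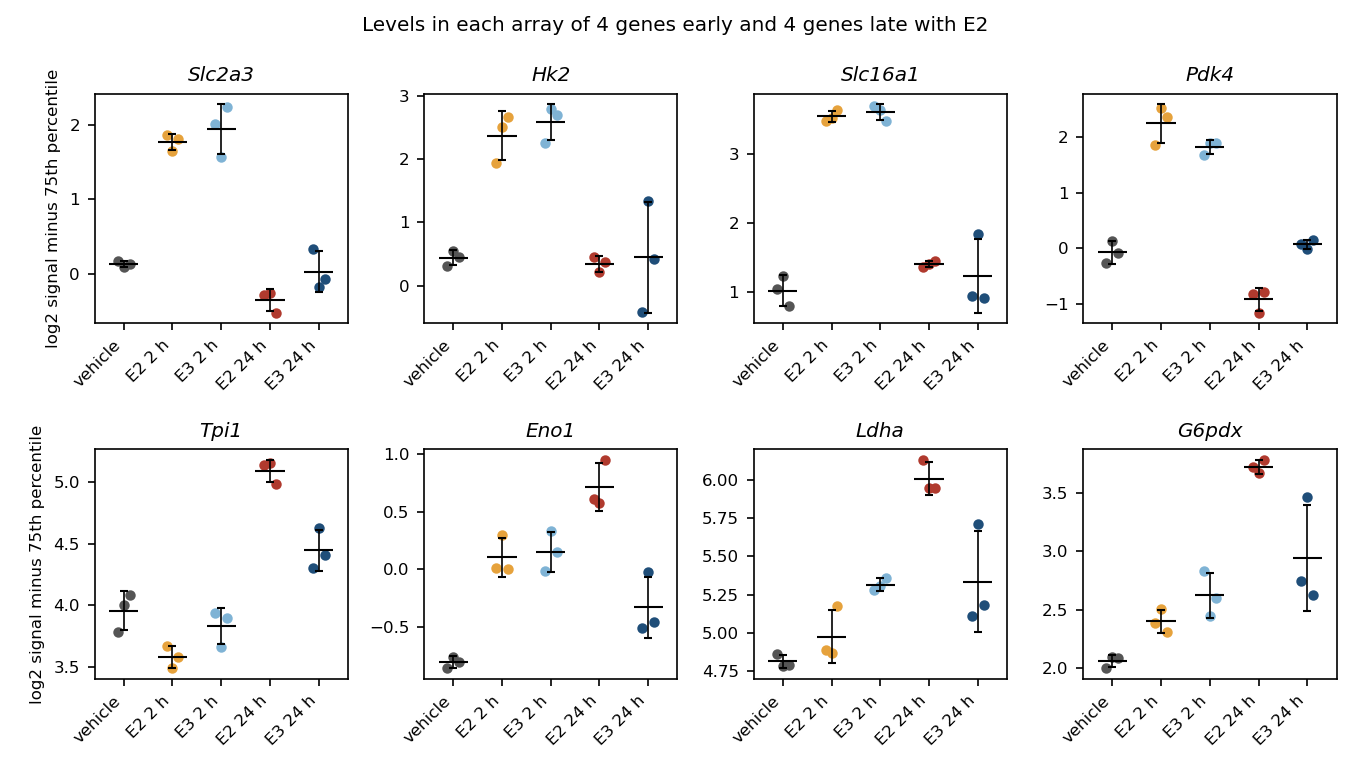
Levels (log2 signal minus the array's 75th percentile) of 4 genes that were early with E2 (upper row) and 4 that were late with E2 (lower row) on each array, with points for arrays, a horizontal line for the mean of the group and bars of 1 SD (n = 3). The genes of the upper row peak at 2 h with both oestrogens, and those of the lower row are highest in the E2 arrays at 24 h; array 2 of E3 at 24 h lies above the other two for Hk2, Slc16a1, Eno1, Ldha and G6pdx.

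All 5 pentose phosphate genes rose at 24 h with each oestrogen. G6pdx, the enzyme that commits glucose to the pathway, lay at 2.00, 2.09 and 2.08 with vehicle, at 2.38, 2.50 and 2.31 at 2 h after E2 and at 2.83, 2.44 and 2.60 at 2 h after E3. A day after E2 it lay at 3.73, 3.67 and 3.79, and a day after E3 at 2.75, 3.47 and 2.62. Every treated array was above every vehicle array. G6pdx rose at 24 h by 1.67 ± 0.18 with E2, which is 3.19-fold and the largest change of the 31 genes in that comparison (adjusted p = 4.4e-05), and after E3 by 0.89 ± 0.18 (adjusted p = 0.00956). It also rose by 0.57 ± 0.18 at 2 h after E3 (adjusted p = 0.027), a call lost without any 1 of the vehicle arrays (0.54, 0.59 and 0.58) or without E3 array 1 (0.47) or 3 (0.58).

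Pgls, the lactonase of the second step, lay at 1.47, 1.60 and 2.01 with vehicle, at 1.45, 1.22 and 1.20 at 2 h after E2 and at 1.27, 1.10 and 1.60 at 2 h after E3. Its 24 h levels were 2.81, 2.78 and 2.52 for E2 and 2.01, 2.63 and 2.36 for E3. The E2 arrays at 24 h were above vehicle, and the lowest E3 array met the highest vehicle array. Pgls rose at 24 h by 1.01 ± 0.19 after E2 (adjusted p = 0.00126) and 0.64 ± 0.19 after E3 (adjusted p = 0.0359). The E3 call was lost without vehicle array 1 (0.53) or 2 (0.59) or E3 array 2 (0.49) or 3 (0.62). A second probe of Pgls changed by -0.70 at 24 h after E2, so the probes of this gene disagree.

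Pgd, the phosphogluconate dehydrogenase that makes the second NADPH, lay at 2.15, 2.26 and 2.34 with vehicle, at 1.99, 2.09 and 1.94 at 2 h after E2 and at 2.17, 2.21 and 2.13 at 2 h after E3. By 24 h the arrays read 3.25, 3.22 and 3.33 for E2 and 2.59, 3.03 and 2.59 for E3. Both sets of 24 h arrays were above vehicle, E2 above E3. Pgd rose at 24 h by 1.02 ± 0.12 after E2 (adjusted p = 6.8e-05) and 0.49 ± 0.12 after E3 (adjusted p = 0.0177), and the latter was lost without vehicle array 1 (0.44, adjusted p = 0.0718) or 2 (0.49, adjusted p = 0.0565).

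Tkt and Taldo1 encode the transketolase and transaldolase that link the pathway back to glycolysis. Tkt lay at 4.98, 5.17 and 5.28 with vehicle, at 4.997, 4.79 and 4.88 at 2 h after E2 and at 5.30, 5.002 and 5.04 at 2 h after E3. At 24 h it lay at 6.23, 6.05 and 5.96 with E2 and at 5.78, 5.52 and 5.68 with E3. The groups at 2 h overlapped vehicle, and those at 24 h were above it. Tkt rose at 24 h by 0.94 ± 0.13 after E2 (adjusted p = 0.00015) and 0.52 ± 0.13 after E3 (adjusted p = 0.0169), the latter lost without vehicle array 1 (0.44) or 2 (0.53). These values rest on the brightest probe of Tkt. With the mean of all 3 of its probes, of which 1 was well above background on only 2 of the 15 arrays, the changes at 24 h were -0.11 and -0.17. That dim probe changed by -1.49 with E2 and -0.76 with E3, and the remaining probe, well above background on all arrays, by 0.23 with E2 and -0.28 with E3.

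Taldo1 lay at 4.70, 4.74 and 4.80 with vehicle, at 4.32, 4.29 and 4.49 at 2 h after E2 and at 4.57, 4.64 and 4.61 at 2 h after E3. A day after E2 it lay at 5.89, 5.82 and 5.81, and a day after E3 at 5.10, 5.50 and 5.36. The 2 h arrays were below vehicle and the 24 h arrays above it. Taldo1 rose at 24 h by 1.10 ± 0.11 with E2, which is 2.14-fold (adjusted p = 2.6e-05), and after E3 by 0.57 ± 0.11 (adjusted p = 0.00699). It fell by 0.38 ± 0.11 at 2 h after E2 (adjusted p = 0.0152), a call lost without E2 array 2 (-0.34, adjusted p = 0.06) and with median scaling (-0.20, adjusted p = 0.268).

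Both times were also compared with each other. With E2, 20 of the 31 genes rose and 8 fell between the times, against 30.6% and 21.8% of all genes (52.3% called in all). With E3, 12 rose and 7 fell, against 29.9% and 19.8% (49.7% in all). With slide as a fixed block, 21 of the 28 E2 calls held and those of Slc2a1, Hk1, Pfkp, Pfkfb4, Pgam1, Eno1 and Pdk1 ended. Slide 2 alone held both times of E2, with 1 array at 24 h and 2 at 2 h, and the blocked E2 differences came from it. All 19 E3 calls ended with that block, and Eno1 (0.21), Eno2 (-0.25) and Eno3 (-0.55) turned direction. No slide held both times of E3, so that fit joined them only through E2 arrays and rested on E3 24 h array 2 alone. It is thus a weak check of the E3 calls. The largest falls with E2 were those of Pdk4 (-3.18 ± 0.17, which is 9.04-fold, adjusted p = 1e-07), Slc16a1 (-2.14 ± 0.21, adjusted p = 6.5e-06), Slc2a3 (-2.12 ± 0.17, adjusted p = 1.9e-06) and Hk2 (-2.03 ± 0.34, adjusted p = 0.00035). The largest increases with E2 were those of Tpi1 (1.51 ± 0.12, adjusted p = 2e-06) and Taldo1 (1.48 ± 0.11, adjusted p = 9.2e-07).

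Estradiol and estriol, given at the same dose, were compared at matched times. At 2 h, 0 of the 31 genes were called between them by limma, as were 0% of all genes, and 5 of the 31 and 750 of all genes had an unadjusted p under 0.05. The smallest adjusted p was 1. The differences, as E2 minus E3, ran from -0.45 (Slc2a1, 95% interval -0.79 to -0.11) to 0.42 (Pdk4, 95% interval 0.04 to 0.80), and 28 of 31 were below 0. The 95% interval lay within a 2-fold difference either way for 30 of the 31 genes, with a median half-width of 0.34. The gene whose interval went beyond 2-fold was Slc16a3. That no p passed is no evidence that both hormones act alike at 2 h. No slide held 2 h arrays of both E2 and E3. The intervals therefore describe differences between these arrays, in which hormone and slide are mixed, and do not bound the hormone difference alone.

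At 24 h, E2 stood above E3 for 10 of the 31 genes and below it for 1, against 8.97% and 6.79% of all genes (15.8% called in all). Eno1 differed most among the 10, by 1.04 (95% interval 0.70 to 1.38), which is 2.06-fold (adjusted p = 0.00128). G6pdx differed by 0.78 (0.38 to 1.18, adjusted p = 0.0145), Pkm by 0.77 (0.43 to 1.11, adjusted p = 0.00697), Ldha by 0.67 (0.35 to 1.00, adjusted p = 0.0105) and Tpi1 by 0.64 (0.38 to 0.91, adjusted p = 0.00523). Pgk1 differed by 0.61 (0.27 to 0.94, adjusted p = 0.0197), Pgam1 by 0.58 (0.31 to 0.85, adjusted p = 0.00864), Pgd by 0.53 (0.27 to 0.80, adjusted p = 0.0117), Taldo1 by 0.52 (0.29 to 0.76, adjusted p = 0.00767) and Tkt by 0.42 (0.15 to 0.69, adjusted p = 0.0414). The gene below was Pdk4, which differed by -0.99 (-1.37 to -0.61, adjusted p = 0.00306), that is 1.99-fold lower with E2. For all 11 genes the 3 E2 arrays and the 3 E3 arrays did not overlap, in array values given above. These genes were picked by calls on the same arrays, so this adds no support. Among all 31 genes, the E2 arrays lay wholly above the E3 arrays for 11 and wholly below them for 4. The share among all genes tested was not counted. The transporters and hexokinases were not called, with differences of 0.08 for Slc2a1, -0.38 for Slc2a3, -0.46 for Slc2a4, 0.38 for Hk1, -0.10 for Hk2, 0.17 for Slc16a1 and 0.02 for Slc16a3. The interval lay within a 2-fold difference for 25 of the 31 genes.

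P-values were also adjusted over all 40614 tests of both times. Over the 62 pairs, 0 genes were called at 2 h and 10 at 24 h, and Tkt was the gene lost (adjusted p = 0.0809). Among all genes tested, 31 were then called at 2 h and 2116 at 24 h. Between the times, the gap between E2 and E3 changed for 9 genes, against 6.22% of all genes called by limma's interaction term. For 8 of them, against 3.85% of all genes, E2 minus E3 was higher at 24 h, going from below 0 at 2 h (-0.34 for Ldha to -0.05 for Eno1) to above 0. For Pdk4 it went the other way, from 0.42 to -0.99 (-1.41 ± 0.25, adjusted p = 0.0091). Leaving out single arrays ended the call of Pgk1 (0.56 without E2 array 1, 0.49 without E3 array 1 and 0.51 without E3 array 3), of G6pdx (0.62 without E3 array 3) and of Tkt (0.34 and 0.44 without E2 arrays 1 and 2, 0.35 and 0.43 without E3 arrays 2 and 3). With only the 6 arrays of the compared groups in the fit, Pdk4 alone was called (adjusted p = 0.0454), and with slide as a fixed block none of the 11 was. No slide held 24 h arrays of both E2 and E3, and slide 4 held E3 arrays at 24 h only. The blocked differences therefore rested on E3 24 h array 2 alone, reached through E2 arrays at 2 h. For the other E3 arrays that fit cannot tell slide from hormone. Under that block the differences were 0.66 for Tpi1, 1.01 for Pkm, 0.69 for Tkt and -1.74 for Pdk4, at least as large as without it. They were 0.46 for Eno1, 0.25 for Taldo1, 0.18 for G6pdx, 0.17 for Pgd, 0.11 for Pgam1, 0.10 for Ldha and 0.0034 for Pgk1.

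**Figure D4:**
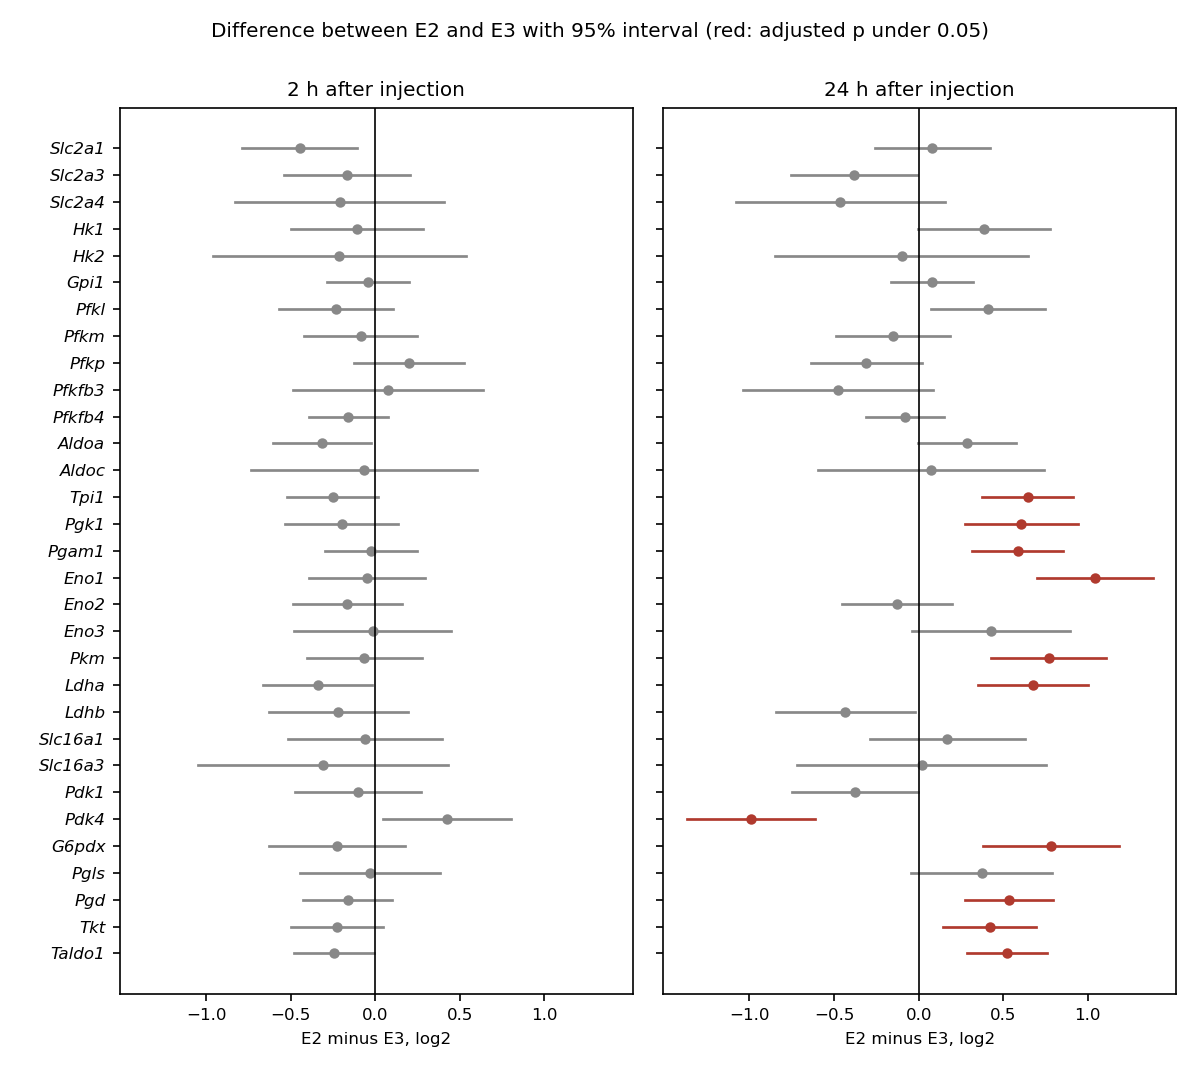
Difference between E2 and E3 (E2 minus E3, log2) of each of the 31 genes at 2 h (left) and at 24 h (right), as points with 95% intervals from limma, red where the adjusted p was under 0.05. No gene is red at 2 h, and 11 are red at 24 h, of which Pdk4 alone lies below 0.

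The 24 h arrays of E3 were the most variable, which bears on each of their calls. The median SD of the 31 genes was 0.27 there and 0.12 to 0.15 in the other groups. E3 24 h array 2 was the highest of its group for 16 genes. That count does not set it apart, since vehicle array 3 was highest for 19 and E2 2 h array 1 for 18. The 14 calls at 24 h after E3 became 5 to 14 on leaving out 1 array, with 5 without vehicle array 1 or 2, 8 and 9 without E3 array 2 or 3, and 0 with only the 6 compared arrays in the fit, where limma called 1 gene of all and 5602 had an unadjusted p under 0.05. Gpi1, G6pdx, Pgk1 and Taldo1 stayed called without any 1 of the 6 arrays. The 16 calls at 2 h after E2 became 9 without E2 array 2.

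Of the arrays as a whole, the 75th percentile of the signal was 1053 to 1854, and 63.7% (E3 24 h array 2) to 80.3% (vehicle array 1) of spots were well above background. All 31 probes used were well above background on all 15 arrays and none was saturated. The arrays lay on 6 slides. The 3 vehicle arrays shared a slide that held no other group, so slide and treatment cannot be told apart in any comparison with vehicle. Most of the 19 other usable probes of these genes, of 14 genes, moved in the direction of the probe used, 16 of 19 at 2 h and 16 of 19 at 24 h of E2.

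Gapdh, which makes the first NADH of glycolysis, is set apart because probes for transcripts like it list its accession. The brighter probe is annotated on chromosome 1, and the other on chromosome 6, where Gapdh lies. The brighter probe lay at 3.54, 3.78 and 3.95 with vehicle, at 4.22, 4.23 and 4.25 at 2 h after E2 and at 4.28, 4.54 and 4.63 at 2 h after E3. Its 24 h levels were 5.37, 5.23 and 5.04 for E2 and 4.41, 4.59 and 4.72 for E3. All treated arrays were above vehicle. It rose by 0.48 (adjusted p = 0.0166) and 0.73 (adjusted p = 0.00127) at 2 h and by 1.45 (adjusted p = 2.2e-05) and 0.82 (adjusted p = 0.00501) at 24 h, each ± 0.14 and in the order E2 and E3. The other probe changed by 0.53, 0.61, 1.40 and 0.59. At 24 h E2 exceeded E3 by 0.63 with the brighter probe (limma adjusted p = 0.00998) and by 0.81 with the other.

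Markers of cell types also moved, and in whole tissue fewer cells of a type and less RNA per cell cannot be told apart. All 10 uterine markers were detected in every group. Their summed linear levels, relative to the 75th percentile, were 42.5 to 53.4 with vehicle, 22.6 to 26.8 and 23.7 to 26.1 at 2 h of E2 and E3, and 39.4 to 43.8 and 35.03 to 41.9 at 24 h. Of the 10, 5 fell and 1 rose at 2 h after E2, and 6 fell and 1 rose at 2 h after E3. Among all genes 23.1% and 23.6% fell there, and the other marker counts stand beside the shares of all genes given above. The sums of 5 proliferation genes were 11.8 to 12.9 with vehicle, 16.8 to 17.9 and 16.6 to 17.7 at 2 h of E2 and E3, 25.0 to 27.3 at 24 h of E2 and 11.4 to 16.5 at 24 h of E3. Of the 5, 1 rose and 0 fell at 2 h after each oestrogen, with median changes of 0.11 for E2 and -0.01 for E3. All 5 rose at 24 h after E2, while 2 rose and 1 fell at 24 h after E3. At 24 h all 5 were higher with E2 than with E3, as were 10 of the 31 genes. The sums of 7 macrophage markers were 109 to 160 with vehicle, 61.5 to 150 and 72.8 to 118 at 2 h of E2 and E3, 87.4 to 101 at 24 h of E2 and 141 to 343 at 24 h of E3, and 4 of the 7 were lower with E2 than with E3. The sums of 9 epithelial markers were 129 to 174 with vehicle, 106 to 121 and 92.6 to 164 at 2 h of E2 and E3, 204 to 282 at 24 h of E2 and 192 to 314 at 24 h of E3. The sums of 9 smooth muscle markers were 386 to 575, 373 to 476, 456 to 568, 566 to 924 and 730 to 895 in the same order, and those of 7 stromal markers 358 to 417, 258 to 338, 302 to 335, 493 to 561 and 563 to 690. Those of 7 endothelial markers were 18.7 to 19.6 with vehicle and 14.4 to 17.7 at 24 h of E2, where 4 of the 7 fell. Of 4 erythrocyte markers tested, 3 rose at 2 h after E2, 2 at 2 h after E3 and 3 at 24 h after each.

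For the muscle isoforms Eno3, Pfkm and Slc2a4, 9 skeletal muscle markers summed to 5.90 to 9.35 with vehicle and to 17.0 to 25.6 at 24 h of E2. Of the 9, 5 could be tested and 1 rose there, and Pvalb was not above background on any array. The sums of 8 adipocyte markers, of which Lep was not well above background on all arrays, ran from 15.8 to 185 within the vehicle group alone. Whether these shifts have a part in the changes of the glycolytic genes was not tested.

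Around the 31 genes, 110 of 117 other genes of glucose use could be tested. With E2, 18 rose and 25 fell at 2 h, near the 15.5% and 23.1% of all genes, and 44 rose and 14 fell at 24 h, where all genes had 21.1% and 22.3%, with medians of -0.06 and 0.42. With E3, 21 rose and 20 fell at 2 h (16.6% and 23.6% of all genes) and 16 rose and 5 fell at 24 h (9.7% and 10.7%). Between E2 and E3 none of the 110 was called by limma at 2 h, while at 24 h 21 were higher with E2 and 6 lower. Genes of the glycerol phosphate and malate shuttles, which carry the electrons of glycolytic NADH into mitochondria, rose in 8 of 10 cases at 24 h after E2, among them Mdh2, the mitochondrial malate dehydrogenase (1.04). Genes of pyruvate entry into mitochondria rose in 8 of 12, among them the dehydrogenase subunit Pdhb (0.60), while the phosphatase Pdp1, which opposes the kinases, fell at both times of E2 (1.37 and 1.12). Of 19 genes of glycogen and galactose use, 7 rose and 1 fell at 24 h after E2, among them the glycogen synthase Gys1 (0.91). Of 8 other sugar transporters 3 rose and 1 fell there, and Slc2a6 rose by 2.19 (adjusted p = 6.8e-05).

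Genes of sugar sensing and hypoxia were counted in the same way, beside the shares of all genes just given. Of 9 genes of Myc and MondoA sugar sensing, 5 rose and 1 fell at 2 h after E2, and 1 rose and 4 fell at 24 h. Txnip, a brake on glucose uptake that sugar sensing induces, fell by 1.97 at 2 h after E2 (adjusted p = 4.4e-05) and 1.94 after E3 (adjusted p = 4.8e-05) and at 24 h by 1.10 with E2 (adjusted p = 0.0026), and its paralogue Arrdc4 rose in the same comparisons by 1.19, 1.31 and 0.96. Of 20 HIF regulators and hypoxia targets, 6 rose and 4 fell at 2 h after E2, and 5 rose and 6 fell at 24 h. The vascular growth factor Vegfa rose at 2 h by 2.67 after E2 (adjusted p = 3e-07) and 2.40 after E3 (adjusted p = 5.7e-07) and fell at 24 h by 0.90 after E2 (adjusted p = 0.00086) and 1.25 after E3 (adjusted p = 0.0023).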

How the data were processed

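The 15 deposited files hold spot intensities of 1-colour Agilent arrays, background-subtracted by the authors with Agilent Feature Extraction 9.5, per the submitters' processing notes (9.5.3.1, per the file headers), on build mm7 coordinates, per the file headers; each file was 1 array, and groups were taken from the labels. Of the 45018 spots an array, controls and flagged outliers were left out, spots of a probe were averaged, and log2 of the processed intensity minus the array's 75th percentile was used. Genes were named through RefSeq accessions and symbols, and the brightest probe over all arrays stood for a gene. The 20307 genes whose probe was well above background throughout 1 or more groups were fitted with limma 3.58.1 in R 4.3.3 (lmFit and eBayes, 1 mean per group, all 15 arrays), with Benjamini-Hochberg adjustment over all of them, and tables and plots used Python 3.11.15, pandas 2.3.3 and matplotlib 3.10.9. The script was tested on simulated data. The number of arrays limits the precision.

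The genes given with every array were those called with at least a 2-fold change against vehicle, or called between E2 and E3. Members, lists and tests were chosen with earlier results of these data known. Same-numbered arrays of different groups had correlations of -0.22 to 0.21 over 30 pairs, in their deviations from group means. The main fit did not pair samples by number, and correlations from so few arrays cannot show that the samples were unpaired. The alternatives were median and quantile scaling, normexp background correction, probe and filter rules, array weights, the compared groups alone, a stricter threshold, slide, scan day and replicate blocks, and leaving out each array.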

Additional observations from a re-analysis of the deposited data

Results flagged for a closer look

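For 9 genes the difference between E2 and E3 itself differed between 24 h and 2 h, by limma's interaction term (E2 minus E3 at 24 h against E2 minus E3 at 2 h, log2), where 3.85% of all genes were higher and 2.38% lower (6.22% called in all). The term was 1.09 ± 0.22 for Eno1 (adjusted p = 0.0177), 1.01 ± 0.21 for Ldha (adjusted p = 0.0192), 1.01 ± 0.26 for G6pdx (adjusted p = 0.0413), 0.90 ± 0.17 for Tpi1 (adjusted p = 0.0151) and 0.83 ± 0.22 for Pkm (adjusted p = 0.0454). It was 0.81 ± 0.22 for Pgk1 (adjusted p = 0.0476), 0.77 ± 0.15 for Taldo1 (adjusted p = 0.0172) and 0.70 ± 0.17 for Pgd (adjusted p = 0.0338). It was -1.41 ± 0.25 for Pdk4 (adjusted p = 0.0091), the sole gene of the 9 with a negative term. The calls of Eno1, Tpi1, Taldo1 and Pdk4 were kept when any 1 of the 12 oestrogen arrays was left out. That of Ldha ended without E2 24 h array 1 or E3 2 h array 3, with values of 0.90 to 1.20 over the 12. Those of G6pdx (0.85 to 1.27), Pgd (0.62 to 0.84) and Pgk1 (0.69 to 1.02) ended without any 1 array other than E3 24 h array 2, and that of Pkm (0.72 to 0.96) without any 1 other than E2 24 h array 3.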

How the results depend on the processing

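Over the alternatives, 5377 values of single genes kept their direction and their side of the threshold, 436 were no longer called, 101 became called and 7 reversed. The 7 were Tkt with the mean of a gene's probes (-0.11 at 24 h of E2 and -0.17 at 24 h of E3 against vehicle, -0.14 and -0.092 from 2 h to 24 h of E2 and E3) and, from 2 h to 24 h of E3 with slide as a fixed block, Eno1 (0.21), Eno2 (-0.25) and Eno3 (-0.55). The cause was not tested. The count of genes called at 24 h after E3, 14 as reported, was 5 with quantile normalization, 9 with no filter, 9 with the mean of probes, 0 with the compared groups alone, 3 at adjusted p under 0.01, 8 with slide as a random block, 7 with scan day as a block, 6 on scan day 1 alone and 5 to 14 without 1 array. At 2 h after E2 the 16 became 26 with array weights, 9 at adjusted p under 0.01 and 9 to 17 without 1 array. The 11 between E2 and E3 at 24 h became 1 with the compared groups alone, 6 at adjusted p under 0.01 and 0 with slide as a fixed block (8 to 13 without 1 array). The 19 from 2 h to 24 h of E3 became 0 with slide as a fixed block. The 9 of the interaction became 5 with no filter, 5 with the compared groups alone, 1 at adjusted p under 0.01, 5 with slide as a random block, 0 with slide as a fixed block, 2 with scan day as a block and 4 to 11 without 1 array. Leaving out 1 array gave 11 to 15 calls at 2 h of E3 and 17 to 20 at 24 h of E2. From 2 h to 24 h it gave 23 to 26 calls with E2 and 18 to 23 with E3. Shares of all genes under most alternatives are not given here, so these counts stand without that background.

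With the replicate number as a block, the calls were 15 and 14 at 2 h and 20 and 11 at 24 h of E2 and E3 against vehicle, 0 and 11 between them at 2 h and 24 h, 27 and 19 between times and 6 for the interaction. Calls kept in every alternative other than the stricter threshold were 9 of 16 at 2 h of E2, 9 of 15 at 2 h of E3, 12 of 22 at 24 h of E2 and 0 of 14 at 24 h of E3, and 0 of 11 between E2 and E3 at 24 h. The slide of the vehicle arrays could not be blocked in the comparisons with vehicle, since no other group lay on it. With slide as a fixed block, the other comparisons that include E3 at 24 h rested on E3 24 h array 2 alone. That of E2 at 24 h against 2 h rested on slide 2 alone.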
